A study of Mus musculus with 15 samples.

Results

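The binding sites described here are the 12454 sites of the RNA-binding protein SAM68 that were called in undifferentiated E14 mouse embryonic stem cells at day 0, were overlapped by no site at day 3 or day 10, and lay in genes bound on every day. They were chosen from the authors' lists by 2 conditions. The site had to share no nucleotide on the same strand with a site of the other 2 lists, and its gene had to hold 3 or more sites in each list. They are called day 0 unique sites below, and the 1537 genes that meet the second condition are called constantly bound. The day 0 unique sites were 12454 of the 19511 day 0 sites in these genes, and of 132293 sites in the 3 lists together. The other 7057 day 0 sites of the same genes overlapped a later site and are called shared.

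SAM68 was mapped by iCLIP2, a method in which proteins are crosslinked to RNA by ultraviolet light and precipitated with an antibody, and in which the end of the cDNA marks the crosslinked nucleotide. The day 0 cells were grown without feeders on gelatin, with serum, leukemia inhibitory factor and inhibitors of GSK3 and MEK, and were irradiated as stem cells. The day 3 and day 10 samples were embryoid bodies of the same line, which are cell aggregates that differentiate, set up in medium with serum. They were grown in hanging drops until day 3 or, for day 10, directly in spheroid plates, so day and culture format cannot be told apart, and they were dissociated before irradiation. Each day had 5 libraries, and nothing in the labels says whether they came from separate cultures. The deposited values are 1 list per day of sites 5 nt wide, with no counts per library, so the spread between replicates and the depth are unknown and no test between days was possible. Brackets give exact 95% intervals, which hold counting error alone and take no account of the fact that sites of 1 gene are not independent.

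SAM68, encoded by Khdrbs1, belongs to the STAR family of proteins, which bind single-stranded RNA through a KH domain. It is known to favour stretches rich in A and U, among them UAAA, and to act on splicing, on the use of poly(A) sites and on the export of RNA. Many of its contacts lie in introns, so the sites of a gene can be spread over the whole length of its primary transcript. Site lists from such an experiment depend on how much of an RNA is present as well as on binding. RNA levels were not used here, so less RNA, fewer cells that make it and less binding cannot be told apart.

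Marker genes, chosen with earlier results of these data known, were looked at first. The values are counts of binding sites, not RNA levels, and are a description. All 8 markers of the naive state held sites on day 0, from 2 in Klf4 and Prdm14 to 46 in Nr5a2, and at most 5 sites each on day 10. None of the 6 markers of later embryoid bodies held a site on day 0, and on day 10 they held 33 to 111 each.

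No genome sequence was used, so sequence could be read only where a site fell inside a RefSeq promoter record, which covers 250 bases before and 50 after an annotated transcription start (build GRCm38.p6). This was the case for 13 day 0 unique sites on the chromosomes searched, and 7 of them are printed. The first group shows the sites nearest to a later site, and the second shows sites with the letters TAAA within the 25 nt window. Windows are printed 5′ to 3′ on the strand of the site, with the 5 nt of the site in capitals.
Rps12, chr10:23787185-23787209, minus strand: accgccggccTTTTCccctgccgcc
Snhg1, chr19:8723473-8723497, plus strand: ttgttcttgtCGGCCtcatttttcc
Ddx5, chr11:106788471-106788495, minus strand: cacctcattcATTTCcatcggtcct
Wsb1, chr11:79243161-79243185, minus strand: ccttaaattaTTTACccagttatta
Tcf20, chr15:82898429-82898453, minus strand: cggcactaaaTTCTGatctaggagg
Dlg1, chr16:31754238-31754262, plus strand: gaagccttatATTTAaaattcagtt
Hnrnpd, chr5:99976494-99976518, minus strand: tttatttctgTCTTAtaaagatttc

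The first 3 windows lie at the annotated start of their transcripts, with the site centred at -2 nt from it in Snhg1 and at 11 nt in Ddx5. The site in Rps12, which encodes a protein of the small ribosomal subunit, was centred 12 nt downstream of the annotated start and 5 nt from the nearest later site of the gene. The site in Snhg1, a non-coding host gene of small nucleolar RNAs, lay 9 nt from a later site, and that in Ddx5, an RNA helicase, 13 nt. Relative to the annotated start, the other 4 were centred at -149 nt in Wsb1, -100 nt in Dlg1, 20 nt in Tcf20 and 21 nt in Hnrnpd. The sites in Wsb1 and Dlg1 thus lay upstream of the annotated start. All 4 lay farther from later sites than the first 3 did. The distance was 168 nt in Wsb1, a substrate receptor of a ubiquitin ligase, 246 nt in Tcf20, a transcriptional coregulator, 726 nt in Dlg1, a scaffold protein of cell polarity, and 1022 nt in Hnrnpd, an RNA-binding protein that acts on AU-rich elements. The letters TAAA, searched on the strand of the site only, were present in 4 of the 13 windows (30.8%, 9.09 to 61.4), in 2 of 35 windows of shared day 0 sites (5.71%, 0.700 to 19.2) and in 7.81% of 394212 stretches of the same length cut from all promoter records. The intervals of the day 0 unique and day 0 shared sites overlap. Among unique sites of the other days, TAAA was present in 1 of 11 windows on day 3 (9.09%) and 5 of 30 on day 10 (16.7%). For their shared sites it was present in 3 of 40 (7.5%) and 2 of 37 windows (5.41%). Thymine made up 50.8% of the bases of these 13 unique sites and 46.9% of those of the 35 shared sites, against 23.0% of all bases in the records. It made up 30.9% in the unique sites of day 3 and 48.7% in those of day 10. In the shared sites of day 3 and day 10 it made up 51.0% and 53.5%. Promoter records are a small and selected part of the transcripts, and nothing is read from them about the other sites.

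Being unique to day 0 was common. Of the 29740 day 0 sites in all genes, 68.6% had no overlapping site at day 3 or day 10, and in constantly bound genes 63.8% had none (63.2 to 64.5). In genes that did not meet the threshold of 3 sites per day the share was 77.6%. The same rule applied to the other days called 64.2% of the day 3 sites and 78.8% of the day 10 sites of the constantly bound genes unique, so the day 0 value lay next to that of day 3, a list of similar length. At the edge of the gene threshold, 67.2% of day 0 sites were unique in genes whose thinnest day held 3 sites, and 65.0% in genes whose thinnest day held 2. These shares follow from the rule and are given as a description.

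Most day 0 unique sites lay close to a site of a later day. Distances use the same lists as the rule and are a description. The median distance to the nearest day 3 or day 10 site of the same gene, measured between centres, was 329 nt (317 to 342), with quartiles of 112 and 1166 nt. Of the 12454 sites, 4.21% lay 5 to 10 nt away, 10.2% 11 to 50 nt, 23.7% 51 to 200 nt, 34.6% 201 to 1000 nt and 24.3% 1001 to 10000 nt. The remaining 373 sites, 3.00%, lay more than 10 kb from any later site. A unique site was thus within 1 kb of later binding in 72.7% of cases.

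The numbers fell steeply up to the overlap threshold and were nearly level just past it. The nearest later site was at an offset of 0 nt for 3492 day 0 sites of the constantly bound genes, 1 nt for 2292, 2 nt for 781, 3 nt for 319 and 4 nt for 173, all of which count as shared. Just beyond it, 99 sites lay at 5 nt, 91 at 6 nt, 93 at 7 nt and 98 at 8 nt, and these count as unique. Whether the 524 unique sites within 10 nt are shifted calls of a later site or separate sites was not tested. They were 4.21% of the unique sites. Of the shared day 0 sites, 9.95% had a later site 5 to 10 nt away that did not overlap them. The nearest later site lay on the 3′ side of the unique site in 51.5% of cases and on the 5′ side in the others.

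The distance to later sites depends on how dense they are, and the day 10 list held 74287 sites against 28266 in the day 3 list. The median distance of day 0 unique sites was 551 nt to the nearest day 10 site (527 to 576) and 989 nt to the nearest day 3 site (947 to 1037). The nearest later site was a day 10 site for 7362 unique sites, a day 3 site for 4539, and equally near on both days for 553. Day 3 unique sites in the same genes provide a comparison with a list of similar length. Day 0 unique sites lay 329 nt from the nearest site of the other days, and day 3 unique sites 332 nt (319 to 345). To the nearest day 10 site the medians were 551 nt for day 0 unique sites and 519 nt for day 3 unique sites (500 to 540), with overlapping intervals. Of the day 0 unique sites 27.3% were more than 1 kb from a site of another day, against 26.4% of the day 3 unique sites and 38.5% of the day 10 unique sites.

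Unique sites lay farther from later sites than shared sites did, which is a description. Shared sites are chosen for an overlapping later site, so the rule enters this order. Shared day 0 sites were a median of 193 nt (186 to 200) from the nearest later site that did not overlap them, and 85.5% had one within 1 kb. Unique sites were also farther from other day 0 sites, with a median of 716 nt (691 to 746), against 512 nt (489 to 539) for shared sites. The same order was found at day 3, with medians of 332 nt for unique and 189 nt for shared sites.

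**Figure D1:**
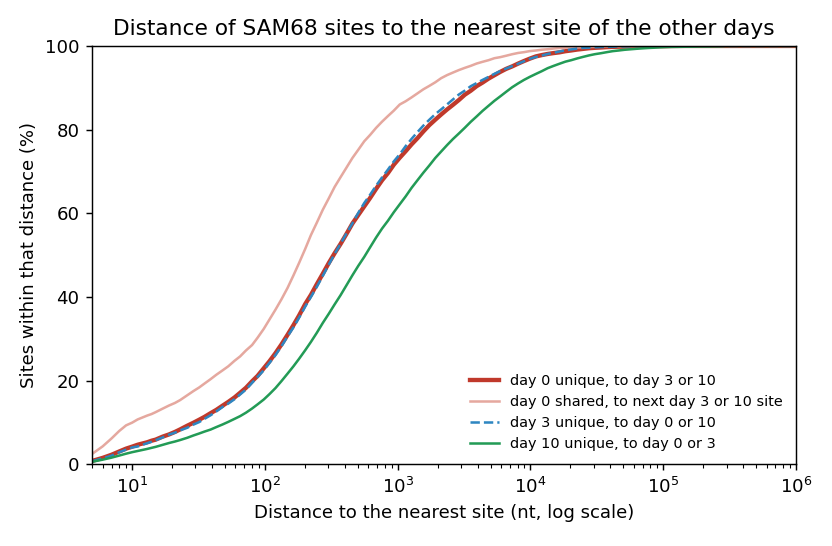
Cumulative share of sites (%) within a given distance (nt, log axis) of the nearest site of the other days in the same gene, for day 0 unique, day 0 shared, day 3 unique and day 10 unique sites of the constantly bound genes. The curves of day 0 unique (median 329 nt) and day 3 unique sites (332 nt) lie on each other, shared day 0 sites are closer (193 nt) and day 10 unique sites farther (570 nt).

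Along the gene, day 0 unique sites and later sites had nearly the same distribution. Position was expressed as a share of the annotated span, with 0 at the 5′ end and 1 at the 3′ end, and was available for 12072 of the 12454 unique sites. The median position was 0.49 for day 0 unique sites (0.48 to 0.49), 0.49 for shared day 0 sites (0.48 to 0.51) and 0.49 for all day 3 and day 10 sites of the same genes (0.48 to 0.49). The quartiles of the unique sites were 0.25 and 0.72, against 0.24 and 0.73 for the later sites. With the gene extent taken from the first to the last site of the 3 lists, the medians were 0.47, 0.47 and 0.47 in the same order.

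The ends of the gene were looked at by dividing the span into 10 equal parts. The part at the 3′ end held 9.45% of the unique sites (8.94 to 9.99), against 11.2% of the shared day 0 sites (10.4 to 11.9) and 10.1% of the later sites (9.83 to 10.3). The part at the 5′ end held 9.15% of the unique sites (8.64 to 9.68), against 9.44% of the shared sites (8.75 to 10.2) and 10.0% of the later sites (9.76 to 10.2). No part held less than 8.56% or more than 11.1% of the unique sites. Of the unique sites, 11517 lay between later sites of their gene and 937 outside the outermost later sites (7.52%, 7.07 to 8.00), 528 of them beyond the 5′ end and 409 beyond the 3′ end of that range. For day 3 unique sites against the other 2 days the outside share was 7.07% (6.63 to 7.54), with 404 sites at the 5′ and 467 at the 3′ side.

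**Figure D2:**
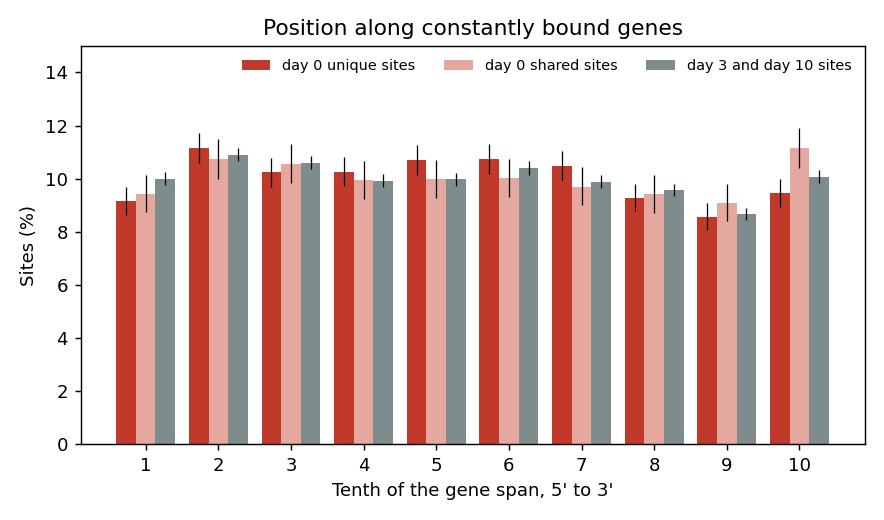
Share of sites (%) in each of 10 equal parts of the annotated gene span, from the 5′ end (1) to the 3′ end (10), for day 0 unique sites, day 0 shared sites and all day 3 and day 10 sites of the constantly bound genes. Bars start at 0 and error bars are exact 95% intervals. Unique sites range from 8.56% to 11.1% per part, and in the part at the 3′ end they hold 9.45% against 11.2% for shared sites.

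In single genes the sites could be displaced, and 781 genes had the 5 unique and 5 later sites needed to compare medians. The median position of the unique sites differed from that of the later sites by 0.25 of the span or more in 106 of them (13.6%), 60 towards the 5′ end (7.68%) and 46 towards the 3′ end (5.89%). This share was close to that of day 3 unique sites against the other days, which was 13.4% of 813 genes, and to that of day 10 unique sites, 15.2% of 1185 genes. For shared day 0 sites it was 8.44% of 474 genes, 5.06% towards the 3′ end and 3.38% towards the 5′ end. For shared sites of day 3 it was 9.8% and of day 10 5.54%, but shared sites overlap later sites by definition and are drawn to their positions. In the 373 genes where both kinds could be placed, the unique sites were displaced in 36 (9.65%) and the shared sites in 31 (8.31%). The call rests on few sites per gene, and with at least 10 unique and 10 later sites 24 of 337 genes passed (7.12%), against 8.89% of 360 genes for day 3 unique sites.

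**Figure D3:**
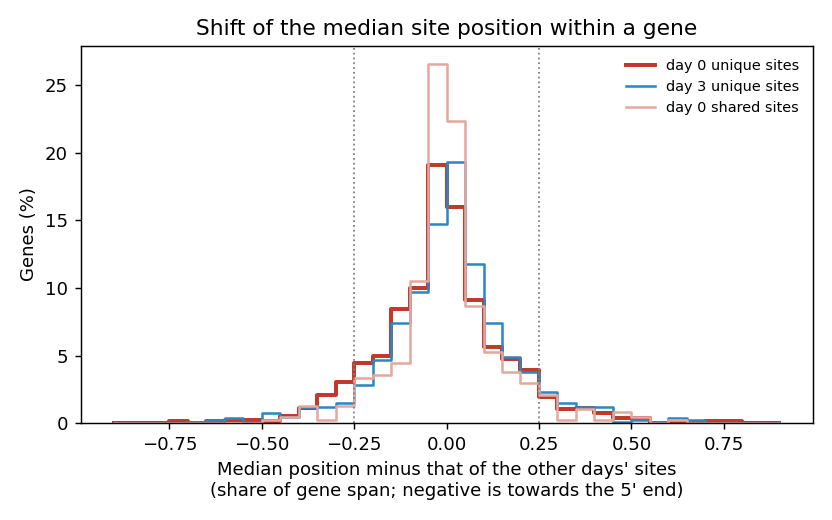
Distribution over genes (%) of the median position of day 0 unique, day 3 unique and day 0 shared sites minus the median position of the sites of the other days, as a share of the gene span, with negative values towards the 5′ end. Dotted lines mark 0.25. Day 0 unique sites pass them in 13.6% of genes, day 3 unique sites in 13.4% and day 0 shared sites in 8.44%.

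Among genes with at least 10 unique and 10 later sites, the 5 largest displacements towards the 5′ end were in Septin11, Csnk2a1, Csnk1a1, Uri1 and Xpo7. Septin11, which encodes a filament-forming GTP-binding protein, had 15 sites on day 0, 8 on day 3 and 25 on day 10. Its 11 unique sites had a median position of 0.20, against 0.76 for the later sites, with 7 of the 11 in the 5′ part of the gene up to the midpoint, against 11 of the 33 later sites. Later sites were not missing there, since 8 of the 25 day 10 sites and 3 of the 8 day 3 sites lay in the same part. Uri1, a chaperone of the prefoldin family, held 23, 22 and 24 sites, and all 15 unique sites lay before the midpoint, as did 34 of the 46 later sites, with medians at 0.11 for unique and 0.43 for later sites. Xpo7, a nuclear transport receptor, held 22, 63 and 76 sites, and 10 of its 11 unique sites lay before the midpoint, against 73 of the 138 later sites with a position. The medians were 0.46 against 0.82 in Csnk2a1 and 0.31 against 0.64 in Csnk1a1. The first encodes a catalytic subunit of casein kinase 2, and the second encodes a casein kinase 1. In all 5 genes the median distance of a unique site to the nearest later site stayed short, between 112 nt in Uri1 and 423 nt in Septin11.

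Large displacements towards the 3′ end were found in St6galnac3, Pkd2, Papola and Marchf7. St6galnac3, a sialyltransferase gene with a span of 527 kb, had 28 sites on day 0, 29 on day 3 and 30 on day 10. Its unique sites had a median position of 0.72, against 0.25 for the later sites, and 14 of its 20 unique sites lay past the midpoint, against 20 of 59 later sites. Its unique sites were farther from later binding than those of the other 3 genes, with a median of 1667 nt and 5 sites more than 10 kb away. The medians were 0.61 against 0.26 in Pkd2, a calcium-permeable channel of primary cilia, 0.53 against 0.21 in Papola, a poly(A) polymerase, and 0.84 against 0.54 in Marchf7, a ubiquitin ligase of the RING type. In Pkd2, Papola and Marchf7 the median distance to later sites was 159 to 209 nt.

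Unique sites without later sites between them formed runs, most of them short. The longest run of consecutive unique sites in a gene had a median length of 2 over the 1537 genes, and 75 genes (4.88%) held a run of 5 or more. For day 3 unique sites the median was 2 as well and 53 genes (3.45%) held such a run, while for the longer day 10 list it was 529 genes (34.4%).

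The longest run was in Kat6b, a histone acetyltransferase, with 23 unique sites over 22.1 kb between positions 21602638 and 21624783 of chromosome 14. Tenm4, which encodes a teneurin of the cell surface, held a run of 15 sites that covered 227 kb, between positions 96338058 and 96565401 of chromosome 7. In this gene 24 of the 37 unique sites lay before the midpoint, against 15 of 19 day 3 sites and 1 of 14 day 10 sites. Ubxn2a, an adaptor of the p97 ATPase, held a run of 15 over 20.2 kb, and its first unique site lay 1.16 kb from the 5′ end, against 22.9 kb for the first later site. Zbtb44, a zinc finger gene, held a run of 15 over 25.8 kb, and 22 of its 34 unique sites lay past the midpoint, against all 12 later sites. Gcnt2, a glycosyltransferase that forms I-branched glycans, held a run of 14 over 21.8 kb. These 5 genes had fewer sites later: Kat6b had 204 on day 0, 40 on day 3 and 23 on day 10, Tenm4 44, 19 and 14, Ubxn2a 23, 5 and 4, Zbtb44 38, 6 and 6 and Gcnt2 36, 5 and 5.

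**Figure D4:**
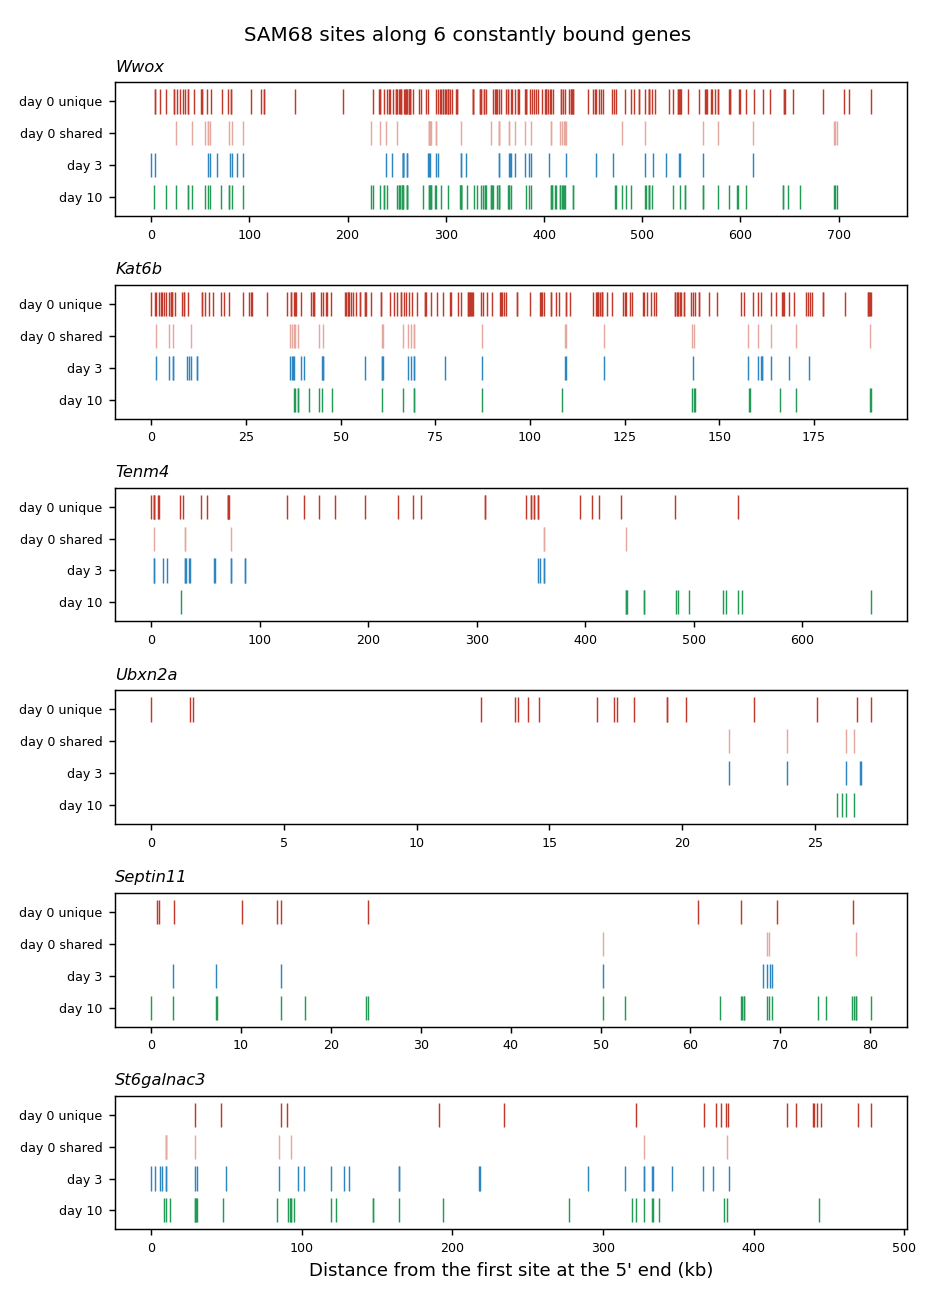
Positions of day 0 unique, day 0 shared, day 3 and day 10 sites (1 tick per site) along Wwox, Kat6b, Tenm4, Ubxn2a, Septin11 and St6galnac3, in kb from the first site at the 5′ end. Unique ticks are mixed with later ticks in Wwox and fill a stretch without later ticks in Ubxn2a. In Septin11 7 unique sites lie before the midpoint of the gene and 4 past it, and in St6galnac3 6 and 14. Later ticks lie on both sides in these 2 genes.

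The 373 unique sites more than 10 kb from later binding lay in 170 genes. Tenm4 held 15 of them, Gcnt2 10, and Immp2l, Wwox, Zbtb44 and Zfp704 held 9 each. The largest distance was 129139 nt in Tenm4 and 123478 nt in Immp2l, which encodes a peptidase of the inner mitochondrial membrane and spans 932 kb.

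Unique sites were spread over many genes. Of the constantly bound genes 1501 held at least 1, with a median of 5 per gene over all 1537, and 227 genes (14.8%) held one in every 2 of them. In 60 genes every day 0 site was unique and in 36 none was. The median unique share per gene was 62.5%, with quartiles of 47.1% and 75%. The 10 genes with most unique sites held 1115 of them, 8.95%.

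Those 10 genes differed in how near the later sites lay. Wwox, an oxidoreductase gene over a common fragile site, had 229 sites on day 0, 45 on day 3 and 113 on day 10, and 183 of its day 0 sites were unique. Its unique and later sites had medians at 0.45 and 0.43 of the gene, and the median distance was 1098 nt. Kat6b had 175 unique sites at a median distance of 1441 nt, Trps1, a GATA-type repressor, 112 at 1449 nt, Ranbp17, an importin-like transport receptor, 111 at 1594 nt, and Immp2l 78 at 1491 nt. In Trps1 the unique sites reached from 3.42 to 234 kb of the gene, against 75 to 208 kb for the later sites. Exoc4, a subunit of the exocyst that tethers secretory vesicles, held 143, 175 and 435 sites, and its 84 unique sites lay a median of 257 nt from later ones. Etl4 held 140, 180 and 161 sites, with 80 unique at 263 nt, and every site of the 3 lists lay past the midpoint of its span. The other 3 were Arl15, an ARF-like GTPase, with 132 unique sites, Diaph3, an actin-nucleating formin, with 86, and Macf1, a linker of actin and microtubules, with 74. Over the 10 genes the median position of unique sites differed from that of later sites by at most 0.15 of the span, in Kat6b, and by 0.08 or less in the other 9. The value for Kat6b leaves out sites before its annotated 5′ end, which have no position. From that end, its first unique site lay at -17.0 kb and its first later site at -15.7 kb. Of its 175 unique sites, 82 had a position before the midpoint and 70 past it.

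The share of unique sites was lower in genes with more later sites per day 0 site. With the genes ordered by that number and divided into 4 groups, 73.6% of day 0 sites were unique in the lowest group (72.6 to 74.6), followed by 60.8%, 57.1% and, in the highest, 51.6% (49.8 to 53.5). The median distance to a later site was 574, 252, 205 and 201 nt in the same order. By gene span, the share was 55.1% in the shortest of 4 groups (53.2 to 56.9), 63.9% and 64.7% in the middle groups and 67.0% in the longest (65.9 to 68.1). By later sites per 10 kb it was 74.2% in the sparsest group and 54.5% in the densest. The number of sites in a gene enters both the share and the groups, so these values are descriptions.

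**Figure D5:**
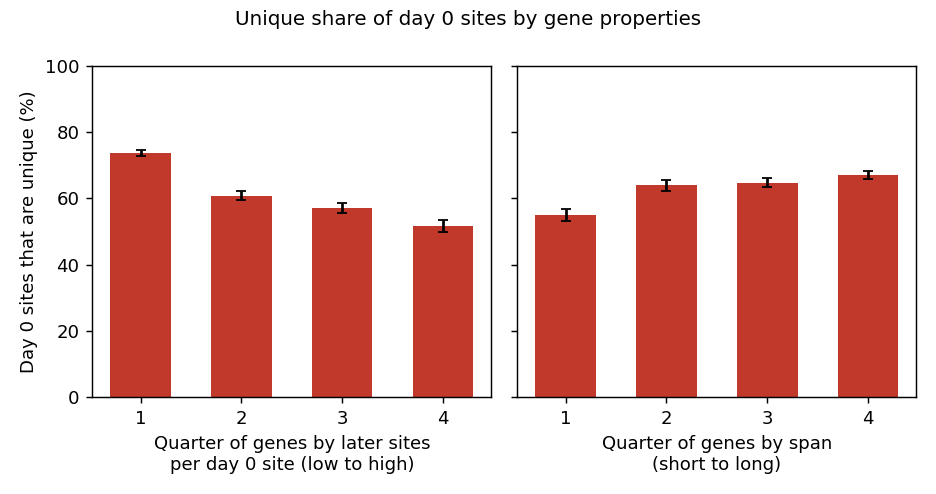
Share of day 0 sites that are unique (%) in 4 groups of the constantly bound genes, ordered by later sites per day 0 site (left) and by annotated span (right). Bars start at 0 and error bars are exact 95% intervals. The share is 73.6% in the group with fewest later sites per day 0 site and 51.6% in the group with most, and it is 55.1% in the shortest and 67.0% in the longest genes.

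The extremes of the unique share were taken among the 246 genes with at least 20 day 0 sites. In Bclaf3, a relative of the apoptosis and splicing factor Bclaf1, all 41 day 0 sites were unique, and the gene held 5 sites on day 3 and 3 on day 10. Sntb2, a syntrophin of the dystrophin complex, had 20 unique sites of 21, with 9 and 8 later, Trps1 112 of 119, with 12 and 18, Immp2l 78 of 85, with 22 and 42, and Gcnt2 33 of 36, with 5 and 5. At the other end, Ddx17, an RNA helicase related to Ddx5, had 6 unique sites of 27, with 17 and 30 later. All 6 unique sites lay past the midpoint of a span of 19.1 kb, as did 46 of the 47 later sites. Setd5, a chromatin regulator, had 23 unique sites of 67, with 69 and 174 later, and Luc7l2, a component linked to the U1 snRNP, 18 of 49, with 49 and 112 later. Atxn10 had 7 of 20 and the transcribed pseudogene 6820431F20Rik 7 of 24. How the authors treated reads shared between a pseudogene and its relatives is not given in the sources used here.

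Of the 5 gene lists, that of splicing and RNA-binding proteins had the lowest unique share. Among all gene IDs with a site on any day, 1537 of 7949 were constantly bound, and this is the base for the counts per gene list. The lists were chosen with earlier results known, so these counts are a description. Of the 50 genes in that list, 34 were constantly bound, with 299 unique sites among 591 day 0 sites (50.6%), a median share per gene of 48.2% and a median distance of 144 nt, against 63.8%, 62.5% and 290 nt over all constantly bound genes. These genes held 1968 later sites beside their 591 day 0 sites, and all constantly bound genes 59542 beside 19511. Qk, a STAR protein like SAM68, held 81, 28 and 125 sites with 49 unique, Rbfox2, a splicing regulator, 32, 16 and 73 with 23 unique, and Mbnl2, of the muscleblind family, 39, 25 and 185 with 22 unique. These genes were named for having most unique sites of the list. Their unique shares of 60.5%, 71.9% and 56.4% were above the 50.6% of the list. In Mbnl2 the unique sites lay at a median of 0.73 of the gene, as did the shared day 0 sites, against 0.75 for the 25 day 3 sites and 0.51 for the 185 day 10 sites.

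Genes for chromatin regulators held 510 unique sites of 757 (67.4%) in 34 of 51 genes, and 175 of them lay in Kat6b. The median share per gene was 60%, against 62.5% over all constantly bound genes. Ncor1, a nuclear corepressor, held 62, 30 and 32 sites with 49 unique, and Suz12, a core subunit of Polycomb repressive complex 2, 43, 17 and 28 with 31 unique. In the signalling list 15 of 40 genes were constantly bound, with 145 of 224 day 0 sites unique (64.7%). Rbpj, through which Notch acts on its target genes, had 45, 23 and 14 sites, of which 36 were unique, and 30 of these lay before the midpoint. The unique sites had a median position of 0.22, against 0.23 for day 3 sites and 0.70 for day 10 sites. Apc, the scaffold of the beta-catenin destruction complex, held 15 unique sites of 25.

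Of the pluripotency network 3 of 30 genes were constantly bound, with 85 of 134 day 0 sites unique (63.4%). Tcf7l1, a Wnt effector that represses pluripotency genes, held 64, 70 and 101 sites with 39 unique at a median of 186 nt from later sites. Rif1, a factor of replication timing, held 35, 27 and 6 with 25 unique, and Jarid2, a partner of Polycomb repressive complex 2, 35, 60 and 51 with 21 unique. In the ubiquitin system 23 of 39 genes were constantly bound and 215 of 349 day 0 sites were unique (61.6%), among them 30 of 47 in Nedd4, a HECT-type ligase, 29 of 45 in Usp9x, a deubiquitinase, and 25 of 43 in Trip12, another HECT-type ligase. In Usp9x 21 of the 29 unique sites lay before the midpoint, against 73 of 111 later sites.

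Genes other than protein-coding ones were 37 of the 1537 and held 228 unique sites. Kcnq1ot1, the imprinted RNA that silences neighbouring genes on the paternal chromosome 7, held 75, 62 and 158 sites, with 34 unique at a median distance of 89.5 nt. Dleu2, a non-coding host transcript of microRNAs, held 58, 9 and 122 with 33 unique, and Neat1, the scaffold RNA of paraspeckles, 32, 7 and 50 with 16 unique. By class, 48.2% of the 141 day 0 sites in 11 lincRNA genes and 46.6% of the 103 in 5 antisense genes were unique. The share was 64.2% in the 1500 protein-coding genes. The non-coding shares rest on few genes and are not read as traits of a class. Kcnq1ot1 alone held 75 of the 103 antisense day 0 sites and 34 of the 48 unique ones. Neat1 held 32 of the 141 day 0 sites in lincRNA genes.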

How the data were processed

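SAM68 iCLIP2 sites were available as 1 deposited list per day, each for 5 libraries. Per the labels' protocols, cells were irradiated at 254 nm with 150 mJ/cm2, RNA fragments were 50 to 200 nt long, and a unique molecular identifier was ligated to each cDNA. The lists give each site a gene, and sites where genes overlap were taken out by the authors, per the file headers. The deposited score of every site is 0 and was not used. The submitters' processing notes list STAR 2.7.11a, SAMtools 1.22.1, UMI-tools 1.1.6, bedtools 2.31.1, MultiQC 1.31 and FastQC 0.12.1, with GRCh38.p14 and GRCm38.p5 as builds. Not given in the sources used here were the site caller, the filter for replicates and how libraries were pooled.

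Coordinates are those of the lists, counted from 1. Symbols and spans came from RefSeq on GRCm38.p6, where the only span of the same class held at least 80% of the sites of an ID. This named 7393 of 7949 IDs and 1494 of the 1537 constantly bound genes. As a check, 98.6% of the day 0 unique sites in protein-coding genes lay in a RefSeq protein-coding span, and 47.9% after a shift of 1 Mb. A later site is a day 3 or day 10 site, and distances run between centres on the same strand within a gene. Promoter records on opposite strands were reverse complements in 1133 of 1133 overlapping pairs.

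The members, the marker genes and the gene lists were chosen with earlier results of these data known. Genes were named by a rule: the 10 with most unique sites, the 5 with the largest and smallest unique share, the 5 largest displacements each way, the 5 longest runs, and up to 3 of each list. One gene that this rule takes is not reported here. The sequences, the genes with sites over 10 kb away and the non-coding genes were chosen after their values were seen. Shares have exact binomial (Clopper-Pearson) intervals and medians intervals from ranks. The steps were tested on simulated data. Python 3.11.15, NumPy 2.4.6, pandas 2.3.3, SciPy 1.17.1 and matplotlib 3.10.9 were used.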

Additional observations from a re-analysis of the deposited data

How the results depend on the processing

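The values were recomputed under 17 alternatives. Requiring 10 sites per day left 7059 unique sites. The unique share was 66.4% with 3 nt of overlap, 82.1% when the same position was required, 61.1% and 54.6% when a later site within 10 or 50 nt counted as shared, and 62.7% without the 10 genes with most unique sites. In the same order the median distance to a later site was 302, 182, 362, 451 and 302 nt. It was 314 and 303 nt with 5 and 10 sites per day, 989 nt against day 3 alone and 551 nt against day 10 alone. The distance thus moved by over 1.5 times under the same-position rule and against either later list alone. The median position was 0.47 with 10 sites per day, 0.47 with the extent from first to last site, 0.47 in the longest of 4 groups of genes and 0.50 as a mean of gene medians. The count of 106 displaced genes became 36 of 383 with 10 sites per day (9.40%), 30 of 245 in the longest genes (12.2%), 24 of 337 with 10 unique and 10 later sites (7.12%), and 358 of 781 at a displacement of 0.10 (45.8%), against 13.6% as reported. Fewer genes were tested in the first 3, but the share was lower too, and its cause was not tested. The share of unique sites over 1 kb from later sites ran from 21.2% to 49.8%, and the share outside the range of later sites from 3.56%, with 10 sites per day, to 8.15%. Of 76 recomputed values 37 moved beyond their interval or, for counts, beyond 1.5 times, and the other 39 did not. No paired analysis was possible because the lists hold no values per library, and for the same reason no library could be left out and no stricter score could be set. Depth is unknown, so a day 0 site without a later partner may be unbound or not detected later.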
